A study of Mus musculus with 24 samples.

Results

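E0771-LG cells carrying a short hairpin RNA against Ptn (E0771-LGshPTN) were compared with E0771-LG cells carrying a control hairpin (E0771-LGshCtrl), with 3 samples in each group. These 6 samples were all those of E0771-LG cells among the 24 samples of the study, which also holds tumors and the parental E0771 cells. The titles of the 3 control samples read E077-LG. E0771 is a mammary adenocarcinoma line of C57BL/6 mice, and E0771-LG was grown out of a lung metastasis of it. Both groups came from cultures infected with pLKO.1-puro lentivirus and kept under puromycin. The control vector carried a hairpin against EGFP, and the cells grew in DMEM with serum. As a model, the comparison rests on 1 hairpin in 1 line and on populations selected apart from each other, so an effect of the selection or of the hairpin on other RNAs and an effect of Ptn loss cannot be told apart. The question was which genes change when these metastatic cells lose PTN.

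Pleiotrophin, the protein PTN encoded by Ptn, is a secreted growth factor that binds heparin and heparan sulfate. It acts on cells through the receptor phosphatase encoded by Ptprz1, through syndecans such as that of Sdc2, and through integrins with the alpha v chain of Itgav. It is best known from the developing nervous system and is made again by many tumors. NF-kB and AP-1 factors, which switch on chemokine and adhesion genes, are among the pathways placed downstream of it.

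Expression was measured by sequencing of bulk RNA, and each value is in log2 RPM, where RPM is the number of reads of a gene for each megaread of the sample, so a difference of 1 is a 2-fold change. The values corresponded to whole numbers of reads, within 0.01 reads, after an offset of 0.5 reads was taken off. The reads recovered came to 17.30, 19.59 and 18.60 megareads in the E0771-LGshCtrl samples and to 21.12, 18.05 and 17.43 megareads in the E0771-LGshPTN samples. Depth therefore overlapped between the groups. Of 12091 genes in the table, 10405 had at least 1 RPM in at least 3 of the 6 samples and were tested with limma. Pearson's r, taken over genes that do not count as independent replicates, lay between 0.974 and 0.991 for samples of the same group and between 0.927 and 0.952 for samples of different groups.

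Knockdown of Ptn came with a broad change in expression. At an adjusted p under 0.05, 4826 genes (46.4% of those tested) differed between the groups, 2531 of them higher (24.3%) and 2295 lower (22.1%) in E0771-LGshPTN. Most differences were small. A change of at least 2-fold was found for 479 of the genes that were higher and 329 of those that were lower, and a change of at least 4-fold for 68 and 40 genes. The median log2 fold change of all genes tested was 0.05. Groups that did not overlap were common, and were found in 5945 of the 10405 genes tested. The count was sensitive to 1 sample, because without E0771-LGshPTN replicate 2 it was 3206 genes, 1620 of them higher. In what follows, "rose" and "fell" are used for genes past this threshold, and negative log2 fold changes mean lower expression in E0771-LGshPTN.

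Ptn itself was read at 3.65, 4.51 and 3.74 log2 RPM in E0771-LGshCtrl and at 1.42, 0.98 and 1.38 in E0771-LGshPTN. All 3 knockdown samples lay below all 3 controls, and the transcript remained detectable in each of them. This was a log2 fold change of −2.71 ± 0.28 (limma, SE, adjusted p = 6.3e-05), and 15.3% of the control level was left. In bulk RNA, fewer cells with a transcript and less of it per cell cannot be told apart.

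Of 20 genes for pleiotrophin, its relative midkine, their receptors and their binding partners, 13 were tested, of which 5 fell and 1 rose, with a median of 0.01 beside 0.05 for all genes tested. Ptprz1, for the receptor phosphatase, was the member that rose. Its values were −0.36, 0.20 and −0.57 in the controls and 1.72, 2.19 and 1.84 with knockdown, a log2 fold change of 2.16 ± 0.38, and of 1.38 with a pseudocount of 1. The receptor was thus near the lower limit of what was tested in the controls and clearly read in each knockdown sample. Without any 1 of the control samples, 2 members of the list were called higher, and after the correction for GC content and length described with gene length there were 3, with 6 lower. Itgav, for the integrin alpha v chain, went from 7.28, 7.20 and 7.30 to 6.33, 6.19 and 6.38, a fold change of −0.96 ± 0.10 on the log2 scale. Sdc2, for syndecan 2, stood at 6.91, 6.64 and 6.69 in the controls and at 6.04, 5.86 and 5.97 with knockdown. Both fell in all 3 knockdown samples, and neither gene's groups overlapped, as held for 5945 of the 10405 genes tested. Mdk, which encodes midkine, did not reach the level for testing, at 0.31, −0.90 and −0.69 in the controls and −3.82, −1.71 and −1.66 with knockdown.

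The fold change depended on gene length. The slope of log2 fold change on log2 exonic length, taken over merged exons, was −0.218 across the genes tested, and −0.12 without the filter on low values. With the genes ordered by exonic length and divided into 10 bins of like size, the median log2 fold change fell at each step, from 0.49 in the shortest bin (at most 1836 bases) to −0.26 in the longest (at least 10163 bases). In the shortest bin 583 genes rose and 33 fell, whereas in the longest 67 rose and 419 fell. Within each sample, the slope of log2 expression on log2 length was 0.221, 0.277 and 0.306 in E0771-LGshCtrl and 0.0775, 0.00238 and 0.071 in E0771-LGshPTN, so the groups did not overlap. The exact two-sided permutation p was 0.1, the smallest that 3 against 3 samples allow. Genomic span gave a slope of −0.0997 and GC content a slope of 0.0162 log2 units per percent, each with groups that did not overlap and an exact p of 0.1.

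A correction for GC content and length, with splines of 5 degrees of freedom fitted in each sample, took the slope on exonic length to 0 by construction. It left 4146 genes past the threshold (39.8%), 1880 higher (18.1%) and 2266 lower (21.8%). Of the 4826 genes called without it, 3313 were also called with it (68.6%), and 3309 of these kept their direction. It ended the call of 985 genes that were higher and 528 that were lower. A trend with genomic span remained after the correction. With genes in 10 bins by span, the corrected median was 0.00 in the shortest bin, with 193 genes higher and 187 lower. In the longest bin it was −0.10, with 154 higher and 296 lower. Whether the length trend came from the RNA, the libraries or the cells was not tested, and corrected values are given beside each gene list.

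**Figure D1:**
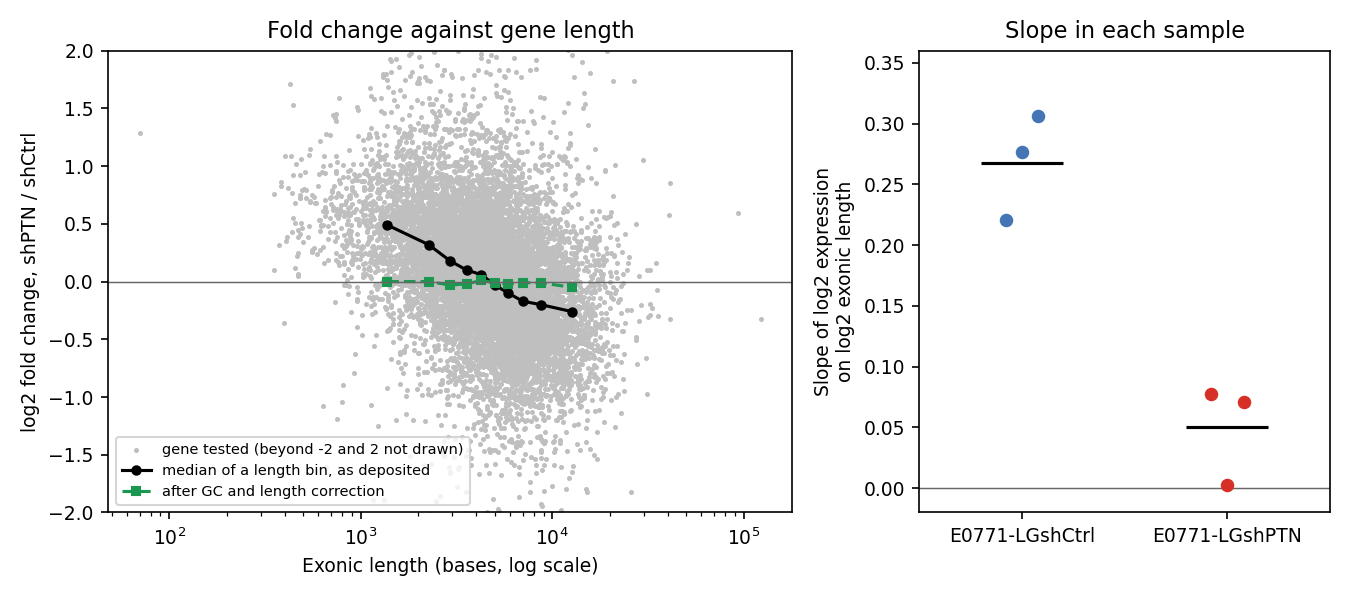
Left, log2 fold change (E0771-LGshPTN over E0771-LGshCtrl, axis from −2 to 2) of each gene tested against exonic length in bases on a log axis, with the median of each of 10 length bins before and after the correction for GC content and length, and right, slope of log2 expression on log2 exonic length in each of the 6 samples, with the mean of each group as a line. Medians fell from 0.49 to −0.26 with length, and all 3 E0771-LGshCtrl slopes (0.221 to 0.306) lay above all 3 E0771-LGshPTN slopes (0.00238 to 0.0775).

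Among genes with a mean of at least 1 log2 RPM over the 6 samples, those with the largest decreases included a collagen chain, a regulator of mitochondria and an enzyme of prostaglandin synthesis. Col1a1, for the alpha 1 chain of type I collagen, was read at 3.45, 3.24 and 3.51 in the controls and at −0.76, −2.37 and −0.73 with knockdown. Ppargc1a, for the coactivator PGC-1 alpha that drives mitochondrial genes, was read at 3.79, 4.30 and 4.19 against 1.42, 0.71 and 1.51. In both genes every knockdown sample lay below every control, which was a condition for being named among the largest changes. Ptgs2, for the inducible cyclooxygenase that starts prostaglandin synthesis, went from 5.15, 5.56 and 5.03 to 2.71, 2.63 and 3.10. Pdpr, for a regulatory subunit of pyruvate dehydrogenase phosphatase, went from 5.95, 5.39 and 5.62 to 3.13, 3.01 and 2.98. The spread within each group was small beside the distance between them. The log2 fold changes were −4.68 for Col1a1, −2.88 for Ppargc1a, −2.61 for Pdpr and −2.43 for Ptgs2, and all 4 kept their call after the correction. With a pseudocount of 1 the value for Col1a1 was −3.02.

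The largest increases at that level included those of Bmp7 and Hapln1. Bmp7, for bone morphogenetic protein 7, was read at 0.02, −0.01 and 0.46 in the controls and at 4.08, 4.22 and 3.86 with knockdown, a log2 fold change of 3.90 ± 0.26. Hapln1, whose product links hyaluronan to proteoglycans, was read at −0.07, 0.07 and −0.17 against 3.71, 3.92 and 3.67. Both genes were at about 1 RPM in each control and 14.9-fold and 14.2-fold higher with knockdown. These sizes depend on the pseudocount, and with a pseudocount of 1 the log2 fold changes of 3.90 and 3.82 were 3.07 and 2.91. Mr1, for the class I-like molecule that presents vitamin B metabolites to T cells, rose from −1.02, 0.13 and −0.57 to 2.18, 3.21 and 3.21, by 3.35 on the log2 scale and by 2.28 with a pseudocount of 1. Among the other large increases, the log2 fold change was 2.66 for Gstt1 and 2.43 for Gsta4, both glutathione transferases, and 2.98 for Ephx2, the soluble epoxide hydrolase. Mt3, a metal-binding metallothionein, rose by 2.77. With a pseudocount of 1 the values were 2.19 for Gstt1, 2.13 for Ephx2 and 2.04 for Mt3. Ldhb, for the lactate dehydrogenase subunit of oxidative tissues, was read at −1.65, 0.82 and −0.01 in the controls and at 2.07, 2.48 and 2.73 with knockdown, with the controls further apart from each other than the knockdown samples. Its log2 fold change was 2.71, and 1.74 with a pseudocount of 1.

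**Figure D2:**
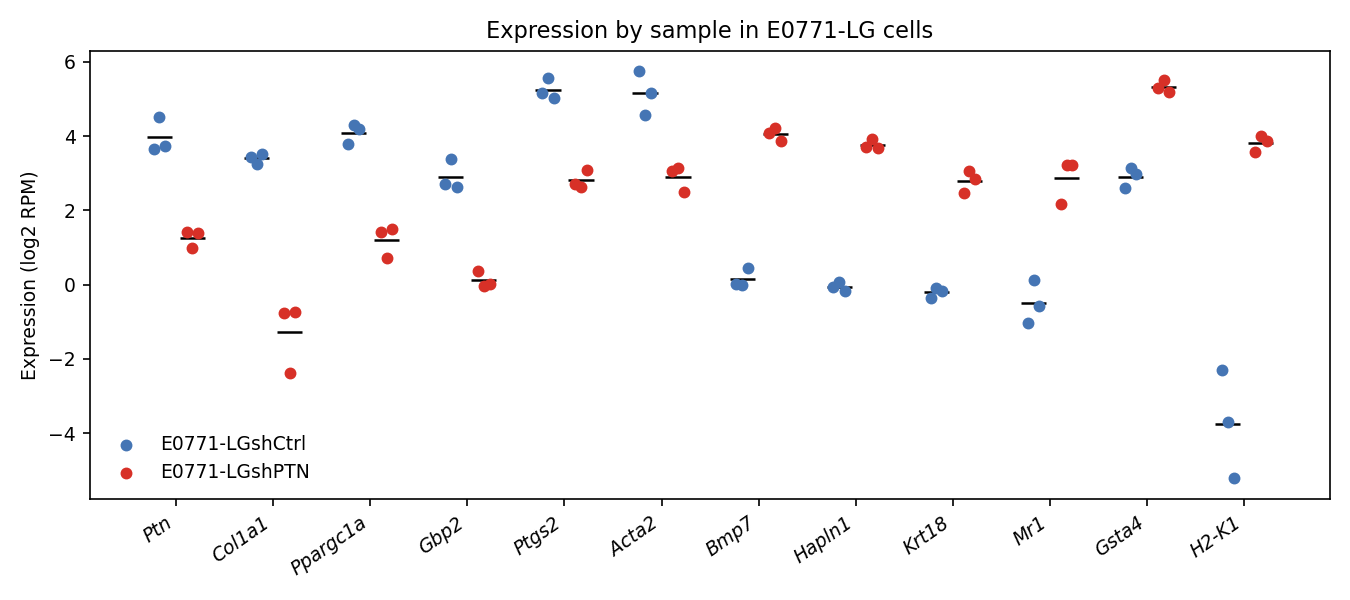
Expression of 12 genes in log2 RPM in each of the 3 E0771-LGshCtrl (blue) and 3 E0771-LGshPTN (red) samples, with the mean of each group as a line. In each of the 12 genes the groups do not overlap: Ptn lies between 3.65 and 4.51 in the controls and between 0.98 and 1.42 with knockdown, and H2-K1 lies between −5.22 and −2.30 in the controls and between 3.57 and 4.01 with knockdown. Groups that do not overlap were a condition for genes chosen as the largest changes, and were found in 5945 of the 10405 genes tested.

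Gene lists were then read against the background of all genes tested, of which 24.3% rose and 22.1% fell. The lists with the lowest medians were interferon-stimulated effectors, mesenchymal factors and markers, and leukocyte adhesion molecules. Those with the highest were epithelial genes, cytosolic ribosomal proteins and oxidative phosphorylation. The order among these was not stable, since leaving out 1 sample took the epithelial median to 0.49, below that of ribosomal proteins (at least 0.57). The correction for GC content and length changed the sign of the medians of AP-1 factors, MHC class I presentation, p53 targets and mitosis genes, and those of the pleiotrophin axis, interferon receptors and collagens, all near 0, changed sign with another scaling or with 1 sample left out. No direction is given for these lists as a whole.

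**Figure D3:**
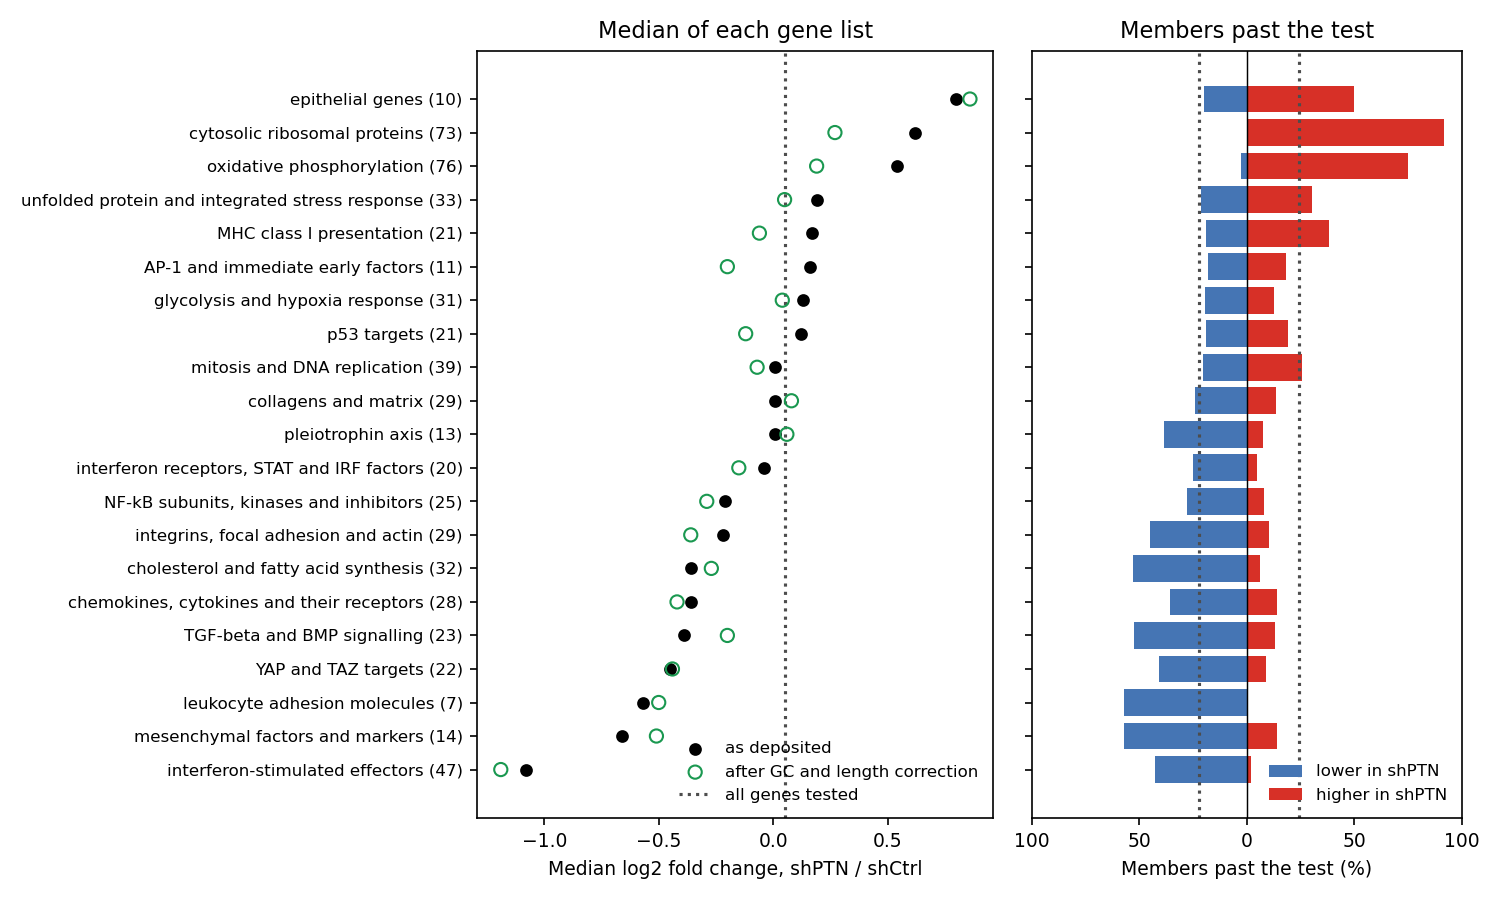
Left, median log2 fold change (E0771-LGshPTN over E0771-LGshCtrl) of each gene list before (filled) and after (open) the correction for GC content and length, with the number of members tested in brackets and the median of all genes tested as a dotted line, and right, percentage of members past an adjusted p of 0.05 in each direction, with dotted lines at the 22.1% lower and 24.3% higher of all genes tested. Interferon-stimulated effectors have the lowest median, −1.08, and epithelial genes the highest, 0.80. With 1 sample left out the epithelial median was as low as 0.49, below that of cytosolic ribosomal proteins (at least 0.57).

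Interferon-stimulated effectors are genes that the transcription factor ISGF3 and related factors switch on to block viruses and intracellular pathogens. Of 56 listed, 47 were tested, of which 20 fell and 1 rose, and 39 had a negative fold change. The median was −1.08 beside 0.05 for all genes tested, and −1.19 after the correction, with 24 called lower and 0 higher by limma (31 and 0 at an unadjusted p under 0.05). The mean of the list was 3.65, 4.95 and 3.79 in the control samples and 2.63, 3.12 and 3.10 with knockdown. All knockdown samples lay below all controls, and E0771-LGshCtrl replicate 2 stood apart, as the highest sample for 42 of the 47 genes. Without it the median was −0.70, and 5 members were called higher. The 1 member that rose was Ifitm2, for a membrane protein that restricts virus entry, by 0.61. Its groups overlapped, and its fold change was −0.00 after the correction. Without E0771-LGshCtrl replicate 1 or 3, or E0771-LGshPTN replicate 2 or 3, it was between 0.45 and 0.62 with an adjusted p between 0.0577 and 0.0937, and 0 members were called higher by limma.

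Guanylate-binding proteins and antiviral nucleotide enzymes were among the members with the largest decreases. Gbp2, for a GTPase that coats pathogen vacuoles, was read at 2.71, 3.38 and 2.63 in the controls and at 0.38, −0.04 and 0.01 with knockdown. Gbp3, of the same family, was read at 3.09, 4.21 and 2.87 against 0.58, 0.61 and 0.81, and Cmpk2, for a mitochondrial nucleotide kinase, at 3.82, 5.06 and 3.79 against 1.08, 1.84 and 1.67. The log2 fold changes of these 3 genes lay between −2.80 and −2.70, and none of their groups overlapped, as the rule for the largest changes required. With a pseudocount of 1 they were −2.05 for Gbp2, −2.17 for Gbp3 and −2.35 for Cmpk2. Oasl2, for a member of the oligoadenylate synthetase family, fell by 2.39 on the log2 scale (adjusted p = 0.0182), and without E0771-LGshPTN replicate 1 its fold change was −2.13 (adjusted p = 0.0648), as it was −2.44 with voom weights (adjusted p = 0.0673). Iigp1, for an immunity-related GTPase, had 115 reads over the 3 controls and 5 over the 3 knockdown samples, a ratio of 0.0426 with an exact 95% counting interval of 0.0136 to 0.102. Its fitted log2 fold change was −5.01, and −1.45 with a pseudocount of 1. Ifit1, whose product binds viral RNA lacking proper caps, stood at 3.75, 5.41 and 4.00 in the controls and at 2.16, 2.28 and 2.57 with knockdown. Ifit3, its partner in a complex, stood at 1.04, 3.34 and 1.90 against −1.01, 0.18 and 0.37, a log2 fold change of −2.25, and of −1.50 with a pseudocount of 1. In both Ifit genes E0771-LGshCtrl replicate 2 was the highest sample, yet the other control samples also lay above every knockdown sample.

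**Figure D4:**
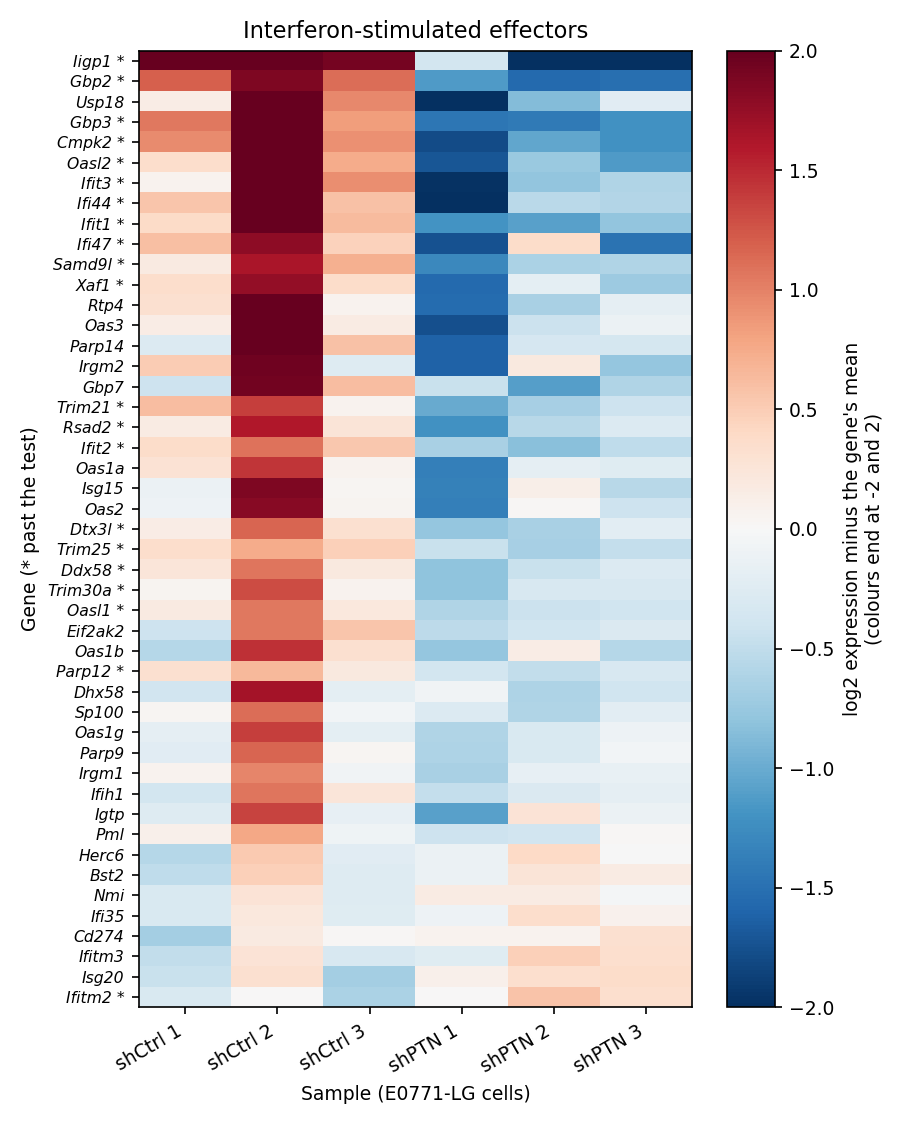
Expression of the 47 interferon-stimulated effectors tested, as log2 RPM minus the mean of the gene over the 6 samples, in each E0771-LGshCtrl and E0771-LGshPTN sample, ordered by fold change, with colours ending at −2 and 2. Stars mark the 20 members that fell and the 1 that rose, and E0771-LGshCtrl replicate 2 holds the highest value for 42 of the 47.

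The promoters of 3 effectors that fell are shown because they hold the most matches to the core of the interferon-stimulated response element (ISRE), the sequence that ISGF3 and other IRF factors bind. Each runs from 250 bases before to 50 bases after the start of the gene, 5′ to 3′ on the strand of the gene, from RefSeq on GRCm38.p6. Capitals mark matches to GAAANNGAA on either strand, all of which here read TTCNNTTTC.
Ifit3, chr19:34583279-34583578, + strand: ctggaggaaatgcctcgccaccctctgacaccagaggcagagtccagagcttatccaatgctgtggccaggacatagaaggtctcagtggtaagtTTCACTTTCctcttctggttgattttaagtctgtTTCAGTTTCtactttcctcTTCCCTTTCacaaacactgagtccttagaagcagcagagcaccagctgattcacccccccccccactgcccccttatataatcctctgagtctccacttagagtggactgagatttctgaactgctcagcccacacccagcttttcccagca
Ifit1, chr19:34640639-34640938, + strand: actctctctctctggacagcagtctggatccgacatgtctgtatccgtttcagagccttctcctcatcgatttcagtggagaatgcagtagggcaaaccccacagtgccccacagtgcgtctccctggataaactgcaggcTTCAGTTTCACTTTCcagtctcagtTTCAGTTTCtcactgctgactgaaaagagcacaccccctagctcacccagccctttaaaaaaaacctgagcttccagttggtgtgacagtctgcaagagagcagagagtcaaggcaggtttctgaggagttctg
Gbp3, chr3:142559794-142560093, + strand: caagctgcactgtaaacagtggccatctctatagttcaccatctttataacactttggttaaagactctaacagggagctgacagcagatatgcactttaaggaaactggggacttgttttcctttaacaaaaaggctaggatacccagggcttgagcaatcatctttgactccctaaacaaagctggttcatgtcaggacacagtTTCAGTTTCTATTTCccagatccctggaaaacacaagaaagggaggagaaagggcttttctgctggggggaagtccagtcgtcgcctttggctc
Ifit3 holds 3 matches, which begin 155, 121 and 102 bases before the start. Ifit1 also holds 3, beginning 109, 103 and 84 bases before it, and the first pair overlaps. Gbp3 holds 2 that overlap, beginning 44 and 38 bases before it.

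Promoters of 8309 of the genes tested were at hand, 10690 in all, since some genes have more than 1. The ISRE core stood in 54.5% of the promoters of interferon-stimulated effectors that fell (12 of 22) and in 60.9% of those of effectors that did not (14 of 23), beside 6.85% of all. In the 150 bases before the start alone, the shares were 31.8% (7 of 22), 52.2% (12 of 23) and 3.08%. The difference between effectors that fell and those that did not was not tested. Over all genes the share was 6.97% where the gene fell and 7.13% where it rose. The kappaB motif GGGANTTCC, on either strand, stood in 2.29% of promoters of genes that fell, 2.31% of those that rose and 2.45% of all. The variant GGGANTTTC gave 0.909%, 0.784% and 0.898%. The AP-1 motif TGAGTCA stood in 4.41%, 3.53% and 3.85%. A match is a run of letters in this window and says nothing on binding.

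Receptors, kinases and factors lie upstream of these effectors. Of 20 interferon receptors, JAK kinases, STAT and IRF factors tested, 5 fell (25%, beside 22.1% of all genes tested) and 1 rose, with a median of −0.04, −0.15 after the correction and 0.07 without E0771-LGshCtrl replicate 2. Without E0771-LGshCtrl replicate 1 the median was −0.26, with 7 members called lower. This list was not tested against the effectors. Jak1, for a kinase shared by interferon receptors, went from 8.05, 8.33 and 8.29 to 7.69, 7.62 and 7.77, a log2 fold change of −0.53 ± 0.10, and of −0.35 after the correction. Stat5b, which also fell, was at −0.47, and at −0.42 after the correction. Irf9, which shares exonic bases with Rnf31, fell too, at −0.75 and −0.69, and its call was lost in 2 of 19 alternatives. Irf3, for a factor that the kinase TBK1 activates after viral RNA or DNA is sensed, was the member that rose, by 0.57, and by 0.36 after the correction. It shares exonic bases with Bcl2l12. The correction left 5 lower and 2 higher. Without E0771-LGshCtrl replicate 3, or without E0771-LGshPTN replicate 1 or 2, 3 members were called lower, and without E0771-LGshCtrl replicate 2, 2 were called higher.

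MHC class I molecules show peptides from inside the cell to CD8 T cells, and H2-K1 and H2-D1 encode the classical heavy chains in C57BL/6 mice. H2-K1 was nearly absent from E0771-LGshCtrl, at −2.30, −3.71 and −5.22 log2 RPM, and was read at 3.57, 4.01 and 3.87 in E0771-LGshPTN. In reads, the 3 controls held 4 and the 3 knockdown samples 795, a ratio of 195 with an exact 95% counting interval of 75.8 to 717. Such intervals cover counting error only. In the parental line H2-K1 was read at 6.65, 6.98 and 6.97 in E0771shCtrl and at 7.17, 6.55 and 6.98 in E0771shPTN. Of the 4 groups of cells, E0771-LGshCtrl was therefore the one in which the transcript was nearly absent, and E0771-LGshPTN stood between it and the parental cells. The knockdown effect differed between the lines by 7.52 on the log2 scale (adjusted p = 9.14e-05). With so few control reads the fitted size depends on the pseudocount: the fold change in E0771-LG was 7.56, and 3.81 with a pseudocount of 1.

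H2-Q4, for a nonclassical class I chain, showed the same order within E0771-LG cells. It had 2 reads over the 3 controls and 147 over the 3 knockdown samples, a ratio of 72.1 with an interval of 19.6 to 601. Its fitted log2 fold change was 5.50, and 1.78 with a pseudocount of 1. Class I genes are close relatives whose reads can align to more than 1 of them, so how these reads divide between members of the family is uncertain. H2-D1, named after its values were seen, was abundant in every sample, at 8.96, 9.56 and 9.26 in the controls and 9.48, 9.81 and 9.69 with knockdown. Its groups overlapped, and its fold change of 0.40 (adjusted p = 0.049) was 0.09 after the correction (adjusted p = 0.572). The call was also lost without E0771-LGshCtrl replicate 1 (0.25) or 3 (0.40), without E0771-LGshPTN replicate 2 (0.32) or 3 (0.38), and with quantile normalization (0.32).

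Of 21 genes of MHC class I presentation tested, 8 rose and 4 fell, with a median of 0.17, and −0.06 after the correction, with 6 in each direction. With 1 sample left out the median ran from 0.00 to 0.39. H2-K1 and H2-Q4, both among the 8, were below 1 RPM in every control and met the level for testing through the knockdown samples alone. Tap2, for a subunit of the peptide pump, was also named after its values were seen. It rose from 4.49, 5.11 and 4.43 to 5.60, 5.57 and 5.64. Erap1, for the peptidase that trims peptides, and Psmb10, for a catalytic subunit of the immunoproteasome, moved the other way. Erap1, which shares exonic bases with Cast, fell from 6.42, 6.84 and 6.58 to 5.79, 5.55 and 5.74, and Psmb10 from 5.93, 5.86 and 5.70 to 5.17, 5.31 and 4.88, a fold change of −0.71 that was −1.17 after the correction. Tapbp, which shares exonic bases with Zbtb22, was also called lower, at −0.71 (limma adjusted p = 0.0286), and at −0.90 after the correction. Its call was lost in 5 of 19 alternatives. The members named here thus moved both ways, with H2-K1, H2-Q4 and Tap2 higher and Erap1, Psmb10 and Tapbp lower. Without E0771-LGshPTN replicate 2, or without replicate 3, 4 members were called higher.

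NF-kB is a family of dimeric factors held in the cytoplasm by inhibitors until a kinase complex releases them. Of 25 of its subunits, kinases and inhibitors tested, 7 fell (28%) and 2 rose (8%), beside 22.1% and 24.3% of all genes tested. The median was −0.21, and −0.29 after the correction, with 9 lower and 1 higher. Nfkb1, for the p105 precursor of the p50 subunit, went from 7.44, 7.70 and 7.56 to 6.95, 6.80 and 6.72, a log2 fold change of −0.74 ± 0.11 (adjusted p = 0.000336), and of −0.47 after the correction. Cyld, for a deubiquitinase that restrains the pathway, went from 7.22, 6.80 and 7.02 to 6.09, 6.14 and 6.25. The members that rose were Nfkbia and Traf1. Nfkbia, for the inhibitor IkB alpha, rose by 0.42 (adjusted p = 0.0154), a call that the correction ended at 0.00 (adjusted p = 0.994) and that was lost without E0771-LGshCtrl replicate 3 (0.33) or E0771-LGshPTN replicate 2 (0.38). Traf1, for an adaptor of TNF receptors, rose by 0.55, and by 0.71 after the correction, and this call was lost without E0771-LGshPTN replicate 2 (0.46) and in the fit of all 12 cell samples (adjusted p = 0.0749). Without E0771-LGshPTN replicate 2 the members called higher by limma were 0, and without E0771-LGshCtrl replicate 3 they were 1.

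Of 11 AP-1 and immediate early factors tested, 2 fell (18.2%) and 2 rose (18.2%), beside 22.1% and 24.3% of all genes tested. The median was 0.16. After the correction 2 were lower and 0 higher by limma (3 and 0 at an unadjusted p under 0.05), with a median of −0.20. Jun was read at 7.02, 6.97 and 6.99 in the controls and at 7.13, 7.03 and 7.06 with knockdown, a fold change of 0.08 that did not pass the test (adjusted p = 0.471) and was −0.14 after the correction. Jund rose by 0.69, and the correction ended this call at 0.09 (adjusted p = 0.496). The members that fell were Egr1 and Fosl2. Egr1, on chromosome 18 and near 1 RPM in the controls, was at −2.07, and at −2.18 after the correction (limma adjusted p = 0.0269). It ran from −2.92 to −0.74 over 15 alternatives and lost its call in 3. Fosl2 was at −0.48, a call that the correction ended at −0.30 (limma adjusted p = 0.152). With any 1 sample left out 1 member was called lower, but without E0771-LGshPTN replicate 2 it was 0 by limma. Without E0771-LGshCtrl replicate 2, 4 were called higher, and 1 was without E0771-LGshCtrl replicate 1 or 3, or E0771-LGshPTN replicate 2 or 3. With replicates of the same number paired as a block, 5 were called higher.

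Chemokines, cytokines and their receptors included 28 genes tested, of which 10 fell and 4 rose, with a median of −0.36, and −0.42 after the correction, with 10 lower and 2 higher. Ccl2, which draws monocytes through the receptor CCR2, was read at 8.83, 9.02 and 8.84 in the controls and at 7.64, 7.97 and 7.86 with knockdown, a log2 fold change of −1.07 ± 0.11. Ccl7, a relative with the same main receptor, went from 5.54, 5.41 and 5.18 to 4.35, 4.40 and 4.28. Both monocyte chemokines thus stood at 47.6% and 48.7% of the control level. Osmr, for the oncostatin M receptor, fell by 0.97. Ccl20, which draws cells with CCR6, rose from 2.07, 3.06 and 2.68 to 3.85, 4.89 and 4.86. Without E0771-LGshCtrl replicate 3, or without E0771-LGshPTN replicate 2, 1 member was called higher, and without E0771-LGshPTN replicate 3 there were 2. Other scalings gave 2 (median of ratios) and 1 (quantile). Without E0771-LGshCtrl replicate 2 the median was −0.15.

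Leukocyte adhesion molecules are the surface proteins by which leukocytes hold on to other cells. Of 7 tested, 4 fell and 0 rose by limma (5 and 1 at an unadjusted p under 0.05), with a median of −0.57. After the correction the median was −0.50, with 4 lower and 1 higher. Sele, for E-selectin, was read at 5.58, 5.57 and 5.60 in the controls and at 3.93, 3.96 and 3.91 with knockdown. The samples of each group were nearly alike, and the knockdown level was 31.9% of the control level. Icam1, for the ligand of leukocyte integrins, went from 6.16, 6.45 and 6.21 to 5.51, 5.70 and 5.75. Without E0771-LGshCtrl replicate 2, or with quantile normalization, 1 member was called higher. The median without the filter on low values was −0.37.

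Within the list of integrin, focal adhesion and actin genes, the largest decrease was that of Acta2, and Myl9 and Cnn1 also fell. Acta2, for smooth muscle actin, was read at 5.75, 4.58 and 5.16 in the controls and at 3.05, 3.14 and 2.50 with knockdown, a log2 fold change of −2.27 ± 0.29. Myl9, for a myosin light chain, went from 4.30, 3.80 and 4.36 to 2.68, 2.03 and 2.10, and Cnn1, for calponin, from 2.36, 1.87 and 2.25 to −0.45, −0.04 and 0.23. In all 3 genes the groups were apart, as in 5945 of the 10405 genes tested, at 20.8%, 27.1% and 21.1% of the control level. For Cnn1 the log2 fold change was −2.24, and −1.50 with a pseudocount of 1. Tpm2, for a tropomyosin, moved the other way, by 0.33, a call that the correction ended at 0.08 (limma adjusted p = 0.617). Of 29 integrin, focal adhesion and actin genes tested, 13 fell and 3 rose, with a median of −0.22, and −0.36 after the correction, with 15 lower and 1 higher. Without E0771-LGshCtrl replicate 1 the median was −0.39, and with quantile normalization −0.34. Itga1, for the alpha 1 chain of a collagen receptor, did not pass the test, with a fold change of 0.17 that was −0.24 without E0771-LGshCtrl replicate 1. Without E0771-LGshPTN replicate 2, or without replicate 3, 1 member was called higher.

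Of 29 collagens and matrix genes tested, 7 fell (24.1%) and 4 rose (13.8%), beside 22.1% and 24.3% of all genes tested, with a median of 0.01, and 0.08 after the correction, with 8 lower and 7 higher. Thbs1, for thrombospondin 1, went from 4.59, 3.79 and 4.62 to 2.32, 2.36 and 2.10, and Lamc1, for a laminin chain of basement membranes, from 8.63, 9.08 and 9.14 to 7.92, 7.79 and 8.07. Sparc, for a collagen-binding glycoprotein, rose from 5.47, 5.68 and 5.54 to 6.74, 6.93 and 6.94. Sparc was thus higher in each knockdown sample while Col1a1, whose product it binds, was lower. Without E0771-LGshCtrl replicate 1, 11 members were called lower, without replicate 2 there were 8 called higher, and without replicate 3 there were 4 called lower. With 1 sample left out the median of the list ran from −0.27 to 0.18.

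The YAP and TAZ coactivators work with TEAD factors to switch on genes of adhesion and growth. Of 22 genes of this group tested, 9 fell and 2 rose, with a median of −0.45, and −0.44 after the correction, with 8 lower and 2 higher. Tead1, for a TEAD factor, went from 7.60, 7.53 and 7.84 to 6.37, 6.30 and 6.61, a log2 fold change of −1.23 ± 0.12. Axl, for a receptor kinase that is a target of YAP, fell from 7.69, 7.66 and 7.64 to 6.76, 6.67 and 6.92. In both genes the groups were far apart beside their spread. The members that rose were Gadd45b, for a stress response protein, by 1.19 and by 0.71 after the correction, and Tead2, for another TEAD factor, by 0.55 and by 0.46. Tead2 shares exonic bases with Cd37. Yap1 fell by 0.40, and the correction ended this call at −0.15 (adjusted p = 0.233). Without E0771-LGshCtrl replicate 2, 14 members were called lower.

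Of 23 genes of TGF-beta and BMP signalling tested, 12 fell and 3 rose, with a median of −0.39. After the correction 6 were lower and 4 higher, with a median of −0.20. Smad4, for the SMAD shared by both branches, went from 7.24, 6.87 and 6.94 to 6.26, 6.18 and 6.15. This shared mediator was therefore lower in all knockdown samples. Of the ligands, Tgfb3 rose from −0.25, −0.25 and 0.21 to 1.76, 1.46 and 1.77, by 1.76 on the log2 scale and by 1.11 with a pseudocount of 1, whereas Tgfb1 did not pass the test, with a fold change of −0.23. Tgfb2 fell by 0.94 (adjusted p = 0.0164) with groups that overlapped, and by 0.82 after the correction, and this call was lost without E0771-LGshCtrl replicate 3 (−0.83) and without E0771-LGshPTN replicate 2 (−0.88) or 3 (−0.78). Bmp7, given above, is also a member. Without E0771-LGshPTN replicate 2, 6 members were called lower, and without E0771-LGshCtrl replicate 3 there were 7. With replicates paired as a block, or with eBayes without its robust option, 5 were called higher. The median without the filter on low values was −0.23.

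Of 24 epithelial genes 10 were tested, of which 5 rose and 2 fell, with a median of 0.80, and 0.86 after the correction, with 3 higher and 2 lower. Krt8 and Krt18 encode partner keratins of simple epithelia. Krt8 was read at 7.16, 7.55 and 7.21 in the controls and at 8.62, 9.07 and 8.93 with knockdown, and Krt18 at −0.36, −0.08 and −0.17 against 2.48, 3.06 and 2.85. Both keratins were higher in all 3 knockdown samples, by 1.57 and 3.00 on the log2 scale, and Krt18 by 2.10 with a pseudocount of 1. Krt18, among the 5 that rose, was below 1 RPM in every control and met the level for testing through the knockdown samples alone. Ocln, for a tight junction protein, rose by 1.94, and by 1.29 with a pseudocount of 1, while Jup, for the junction protein plakoglobin, fell from 5.44, 5.40 and 5.27 to 4.07, 4.51 and 4.72. Without E0771-LGshPTN replicate 1, or without replicate 3, 2 members were called higher, and without E0771-LGshPTN replicate 2 or E0771-LGshCtrl replicate 1 there were 3. The median was 0.49 without E0771-LGshPTN replicate 3, 0.46 with a pseudocount of 1 or the filter at 5, and 0.35 with quantile normalization. The filter at 5 and quantile normalization each gave 3 called higher, and without a filter 4 were called lower.

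Of 14 mesenchymal factors and markers tested, 8 fell and 2 rose, with a median of −0.66, and −0.51 after the correction, with 9 lower and 1 higher. Mmp9, for a gelatinase, was read at 4.27, 4.63 and 4.64 in the controls and at 2.48, 2.85 and 2.75 with knockdown. Mmp3, for stromelysin, went from 5.86, 6.97 and 6.11 to 4.57, 4.91 and 4.94, and Prrx1, for a homeobox factor of mesenchyme, from 7.20, 7.25 and 7.14 to 5.85, 6.11 and 6.14. These 3 genes fell to 28.4%, 35.2% and 44.5% of the control level. Vim, for vimentin, remained abundant at 12.62, 12.45 and 12.35 against 12.04, 12.15 and 12.18, a log2 fold change of −0.35. Twist1, for a transcription factor of mesenchymal transition, rose by 0.49, a call that the correction ended at −0.02. Mmp14, the other member that rose, did so by 0.49, and by 0.54 after the correction (limma adjusted p = 0.00442). Its call was lost in 4 of 19 alternatives. Without any 1 of the E0771-LGshPTN samples, 1 member was called higher, and with voom weights there were 4.

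Of 32 genes of cholesterol and fatty acid synthesis tested, 17 fell and 2 rose, and 11 had a positive fold change, with a median of −0.36, and −0.27 after the correction, with 14 lower and 1 higher. Fasn, for fatty acid synthase, was read at 10.51, 10.23 and 10.64 in the controls and at 9.32, 8.83 and 9.11 with knockdown. Acaca, for acetyl-CoA carboxylase, which makes its substrate, went from 7.57, 7.83 and 8.10 to 6.45, 6.50 and 6.66. Both enzymes of this route stood at 38.6% and 40.6% of the control level. Stard4, for a carrier of cholesterol, fell by 1.27 on the log2 scale. The members that rose encode enzymes of sterol synthesis. Hmgcs1, for HMG-CoA synthase, rose by 0.32, and by 0.35 after the correction (adjusted p = 0.0241), and the call was lost without E0771-LGshCtrl replicate 3 (0.32) and without E0771-LGshPTN replicate 1 (0.34), 2 (0.28) or 3 (0.33). Pmvk, for phosphomevalonate kinase, rose by 0.62 with groups that overlapped, a call that the correction ended at 0.16 (adjusted p = 0.478), and that was also lost without E0771-LGshCtrl replicate 1 (0.45) or 3 (0.60), without E0771-LGshPTN replicate 2 (0.43) or 3 (0.65), and without a filter. Without E0771-LGshCtrl replicate 2, 4 members were called higher, without E0771-LGshPTN replicate 1 there was 1, and without E0771-LGshCtrl replicate 3, E0771-LGshPTN replicate 2 or E0771-LGshPTN replicate 3 there were 0 by limma.

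Cytosolic ribosomal proteins rose almost as a block. Of 73 tested, 67 rose and 0 fell by limma (67 and 0 at an unadjusted p under 0.05), all 73 had a positive fold change, and the median was 0.62. These genes are short, with a median exonic length of 1830 bases beside 4617 for all genes tested, and after the correction the median was 0.27, with 38 higher and 3 lower. Their share of all reads was 5.53%, 5.39% and 5.30% in the controls and 7.63%, 8.40% and 7.77% with knockdown, so the groups did not overlap. E0771-LGshPTN replicate 2 was the highest sample for 67 of the 73. Ribosomal protein genes have many processed copies in the genome, and how reads shared with those copies were counted is not known.

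Oxidative phosphorylation, the set of respiratory chain and ATP synthase subunits with their regulators, gave a like picture. Of 76 genes tested, 57 rose and 2 fell, with a median of 0.54, and after the correction 22 were higher and 5 lower with a median of 0.19. The median exonic length was 1778 bases. E0771-LGshPTN replicate 2 was the highest sample for 58 of the 76. Cox7b, for a small subunit of complex IV, was read at 6.63, 6.99 and 7.10 in the controls and at 8.06, 8.32 and 8.07 with knockdown, and Uqcrh, for the hinge protein of complex III, at 5.38, 5.44 and 5.51 against 6.54, 6.70 and 6.39. Both rose by more than 1 on the log2 scale and stayed past the threshold after the correction, at 0.81 and 0.67. The members that fell were Ppargc1a and Atp5a1, for the alpha subunit of ATP synthase. Atp5a1, on chromosome 18 and sharing exonic bases with Haus1, went from 10.38, 10.20 and 10.23 to 9.65, 9.64 and 9.65.

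Of 33 genes of the unfolded protein and integrated stress response tested, 10 rose (30.3%) and 7 fell (21.2%), beside 24.3% and 22.1% of all genes tested, with a median of 0.19, and 0.05 after the correction, with 7 lower and 6 higher. Atf4, for the central factor of the integrated stress response, went from 8.83, 9.15 and 8.87 to 9.59, 9.82 and 9.73. Its targets Ddit3, for CHOP, and Chac1, for a glutathione-degrading enzyme, rose by 1.28 and 1.09, and by 0.94 and 0.61 after the correction. Ddit3 shares exonic bases with Mars1, and the value for Atf4 went from 0.76 to 0.42 with the correction. Ern1, for the sensor IRE1, moved the other way, from 6.36, 6.52 and 6.44 to 5.32, 5.19 and 5.23. Slc7a11, for the cystine transporter, which is also a target of ATF4, fell from 5.77, 6.08 and 5.62 to 4.74, 4.99 and 5.34. Members of this response were thus both higher and lower in all knockdown samples. Without E0771-LGshPTN replicate 2, 5 members were called higher.

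Of 39 genes of mitosis and DNA replication, all of them tested, 10 rose and 8 fell, near the shares for all genes, with a median of 0.01, and −0.07 after the correction, with 10 lower and 7 higher. Rrm1, for the large subunit of ribonucleotide reductase, fell from 10.14, 9.71 and 9.78 to 8.85, 8.70 and 8.74. Cdc20, for an activator of the anaphase-promoting complex, rose by 0.59, a call that the correction ended at 0.17, and it shares exonic bases with Elovl1. Mki67, the proliferation marker, was read at 4.77, 6.71 and 6.78 in the controls and at 7.42, 7.51 and 7.45 with knockdown. Control replicate 1 was far below the other controls, and the fold change of 1.38 did not pass the test (adjusted p = 0.0908). It was 0.72 (adjusted p = 5.79e-05) without that sample, and 1.63 after the correction (adjusted p = 0.0316). Without E0771-LGshPTN replicate 2, or without replicate 3, 5 members of the list were called lower.

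Along the genome, chromosome 18 stood apart. Of its 258 genes tested, 144 fell (55.8%) and 9 rose (3.49%), and 208 had a negative fold change (80.6%), beside 45.4% of the genes on other chromosomes. The median was −0.47, and −0.40 after the correction. The mean of its genes, relative to each gene's mean over the 6 samples, was 0.207, 0.276 and 0.241 in the controls and −0.220, −0.295 and −0.210 with knockdown. Each knockdown sample lay below each control, and the exact two-sided permutation p was 0.1, the smallest possible. Chromosomes 3, 4, 10, 12, 13, 14, 17 and X gave the same p, so it does not set chromosome 18 apart. The shift ran over the whole chromosome, with medians of −0.56, −0.49, −0.47, −0.45 and −0.40 in 5 bins of its genes by position. The other chromosomes had medians between −0.03 on chromosome 1 and 0.21 on chromosome 10. In the parental E0771 cells chromosome 18 also had the lowest median, −0.13, and the median difference between the lines on it was −0.31, which was not tested. Smad4, Stard4, Atp5a1, Egr1 and Iigp1 lie on chromosome 18, and the copy number of these cells was not measured.

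**Figure D5:**
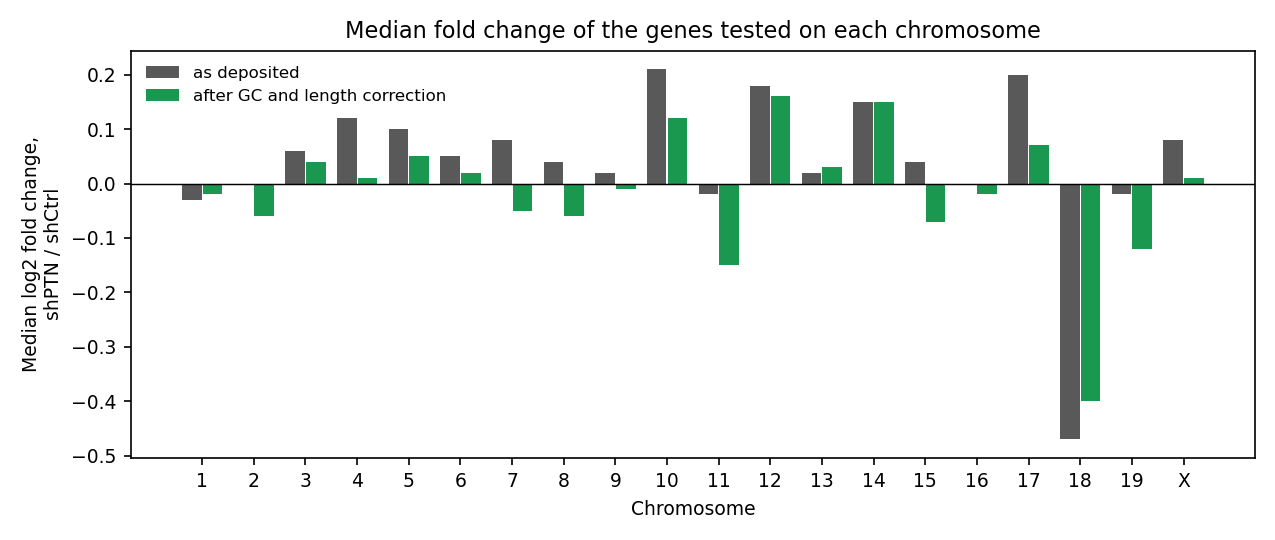
Median log2 fold change (E0771-LGshPTN over E0771-LGshCtrl) of the genes tested on each chromosome, as deposited and after the correction for GC content and length. Chromosome 18 has a median of −0.47, and −0.40 after the correction, while the other chromosomes lie between −0.03 and 0.21 as deposited.

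The effect of knockdown in E0771-LG cells differed from that in the parental E0771 cells. The test of the difference, an interaction term over the 12 samples of both lines, was past the threshold for 3602 of 10600 genes (34%), with 1942 differences positive (18.3%) and 1660 negative (15.7%). Of 4739 genes called in E0771-LG and tested in E0771, 694 were called in the same direction there (14.6%) and 334 in the opposite direction (7.05%). These were 32.4% and 15.6% of the 2140 genes called in E0771, and over all 10394 genes tested there 20.6% were called in either direction (8.89% higher and 11.7% lower). Acta2, Thbs1 and Col1a1 were among the genes with opposite calls. Acta2 had a log2 fold change of −2.27 in E0771-LG and 2.38 in E0771, a difference of −4.64 (adjusted p = 3.02e-05). Thbs1 had −2.07 and 2.70, a difference of −4.78 (adjusted p = 2.93e-05), and Col1a1 had −4.68 and 1.02, a difference of −5.70 (adjusted p = 4.63e-06). For Lamc1 and Sparc, also matrix genes, no difference was found, at −0.11 (adjusted p = 0.69) and −0.03 (adjusted p = 0.895). Of the 47 interferon-stimulated effectors, 8 had a difference past the threshold, and Gbp3 (adjusted p = 0.0615), Cmpk2 (0.167), Oasl2 (0.615), Ifit1 (0.214) and Ifit3 (0.0635) did not. Sele, in contrast, fell by 1.65 in both lines, and no difference was found for it (adjusted p = 0.996). For Ptn the fold changes were −2.71 and −2.40, and their difference of −0.30 did not pass the test (adjusted p = 0.651).

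Markers of other cells were read to check the label of the cells. Of 15 leukocyte markers 14 were in the table and 6 were tested, of which 2 fell and 2 rose, and Adgre1, Tyrobp and S100a9 had 0 reads in all 6 samples. Ptprc, Cd3e, Csf1r, Itgam and Fcer1g were below the level for testing. The summed level of the leukocyte markers was 115, 117 and 115 RPM in the controls and 67.9, 82.7 and 85.3 with knockdown, with Laptm5 the most abundant, and without Laptm5 it was 27.1, 34 and 30.8 against 24.8, 39.3 and 38.5, which overlap. Fibroblast markers, all 9 in the table, summed to 146, 169 and 143 against 66.5, 75 and 79.2, with Pdgfra the most abundant, and of the 7 tested 3 fell and 1 rose. Without Pdgfra they summed to 85.3, 70.9 and 68.1 against 20.3, 30.1 and 26.6. Endothelial markers summed to between 206 and 224 against between 146 and 150, nearly all of it from Eng, and without Eng to 0.867, 2.35 and 2.26 against 3.31, 2.99 and 2.01. Of 2 endothelial markers tested 1 fell, while Pecam1, Kdr and Emcn were below the level for testing. Epithelial markers summed to between 158 and 204 against between 424 and 564, with Krt8 the most abundant, and all 3 tested rose, while Krt7, Krt19 and Cdh1 were below it. The 4 erythroid markers in the table summed to at most 1.83 RPM. Some leukocyte markers and the erythroid markers were thus at or near 0 while other leukocyte markers were read, and Cdh1, which encodes E-cadherin, was near absent from both groups. The leukocyte and endothelial sums thus differed through 1 gene each, and what part the marker sums have in the other results was not tested.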

How the data were processed

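RNA of cultured cells was sequenced on an Illumina instrument. The authors aligned reads to mm10 (GRCm38) with HISAT2, counted them on genes with featureCounts, and name limma and edgeR. The deposited values are log2 RPM, reads per megaread; the step that made them and their filter on genes are not stated. Their form, reads plus 0.5 over the library total, was read from the values. The 12 per-sample columns of tumors were not used.

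Genes with a value of at least 1 off the log scale in at least 3 of 6 samples were tested with limma 3.58.1 in R 4.3.3 (robust eBayes, Benjamini-Hochberg adjustment over all genes tested). The difference between lines was an interaction term over 12 cell samples. Tables and figures were made with Python 3.11.15, numpy 2.4.6, pandas 2.3.3 and matplotlib 3.10.9. The procedure was tested on simulated data.

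Named genes were Ptn, the 10 largest changes in each direction among called genes with a mean of at least 1 log2 RPM over the 6 samples and groups that did not overlap, up to 3 called members per list and direction, the first member of each list, and the printed promoters. The text gives a subset of these, leaving out several whose calls depended on 1 sample, and some items are not reported here. H2-D1, Tap2, Scin and other genes outside that rule were chosen after their values were seen. Members and lists were chosen with earlier results of these data known. Alternatives were other filters, pseudocounts, scalings, weights, thresholds, a correction for GC content and length, replicates of the same number as a block, and leaving out each sample.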

Additional observations from a re-analysis of the deposited data

Results flagged for a closer look

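The effect of Ptn knockdown was compared between E0771-LG and the parental E0771 cells by an interaction term, and 3602 of 10600 genes tested (34%) passed an adjusted p of 0.05 in limma. The values that follow are differences of log2 fold changes, E0771-LG minus E0771, for genes named in the text that passed this test.

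Around pleiotrophin, the difference was 2.39 for Ptprz1, −0.83 for Itgav, −0.75 for Sdc2 and −3.18 for Mdk. Mdk was too low in E0771-LG to be tested there alone, at −3.82, −1.71 and −1.66 log2 RPM in the E0771-LGshPTN samples. With so few reads the size of its difference depends on the pseudocount. Among the genes with the largest changes it was −5.70 for Col1a1, −4.26 for Ppargc1a, −2.06 for Pdpr and −5.42 for Ptgs2, and 2.93 for Bmp7, 4.32 for Hapln1, 3.90 for Krt18 and 3.30 for Mr1. It was 3.02 for Gsta4, 2.75 for Gstt1, 3.03 for Mt3 and 2.31 for Ephx2.

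Of the 47 interferon-stimulated effectors 8 passed this test, beside 34% of all genes, and Gbp3, Cmpk2, Oasl2, Ifit1 and Ifit3 did not. The difference was −1.16 for Gbp2 and −4.80 for Iigp1, which had 5 reads over the 3 E0771-LGshPTN samples. In MHC class I presentation it was 7.52 for H2-K1, 5.71 for H2-Q4, 0.89 for Tap2, −0.98 for Erap1 and −0.84 for Psmb10. In the signalling lists it was −0.40 for Nfkb1, −0.68 for Cyld, 0.98 for Nfkbia, 1.63 for Traf1, 0.56 for Jun, 1.34 for Jund, −0.57 for Jak1 and 0.93 for Irf3.

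The difference was −4.64 for Acta2, −3.55 for Cnn1, −4.34 for Myl9 and −4.78 for Thbs1, while Tpm2 did not pass this test (limma adjusted p = 0.813). For the YAP group the values were −1.38 for Tead1, 1.06 for Tead2, −1.40 for Axl and −0.42 for Yap1, and for the TGF-beta group 0.77 for Tgfb1, −2.47 for Tgfb2, 1.40 for Tgfb3 and −0.73 for Smad4. Epithelial genes gave 1.62 for Krt8, 1.43 for Ocln and −1.06 for Jup, and mesenchymal genes −1.17 for Prrx1 and −1.64 for Mmp3.

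In metabolism, the difference was 1.31 for Cox7b, 0.88 for Uqcrh, −0.60 for Atp5a1, −1.90 for Fasn, −1.29 for Acaca, −1.41 for Stard4 and 1.34 for Pmvk. In the stress response it was 1.54 for Ddit3, 1.49 for Chac1, 1.06 for Atf4 and −0.64 for Ern1. Scin, which was nearly absent from E0771-LGshCtrl, gave 5.50. For Scin, H2-K1, H2-Q4 and Iigp1 the size of the difference depends on the pseudocount, since the fold change in E0771-LG went from 6.18 to 1.91, 7.56 to 3.81, 5.50 to 1.78 and −5.01 to −1.45 with a pseudocount of 1.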

How the results depend on the processing

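There were 19 alternatives, and each named gene was tested in between 15 and 19 of them. In those, 83 of 131 named genes kept their direction and their side of the threshold, 42 lost the call at least once, 5 turned direction at least once, and 2 gained a call at least once. A gene can count in more than 1 of these classes. Ptn kept its call in all 19, between −2.99 and −2.30. The correction for GC content and length ended 26 calls of named genes and pairing replicates as a block ended 1. Pairing rested on little, since the r of residuals between replicates of the same number was 0.158, 0.237 and −0.117, and with the block 5012 genes were called.

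At an adjusted p under 0.01, 3016 genes were called, 1515 higher and 1501 lower, and 1873 differed between lines, as a stricter threshold must lower counts. With 1 sample left out, the counts ran from 3206 to 5113 called, 1620 to 2684 higher and 1586 to 2505 lower, and from 2628 to 3910 for the difference between lines. The slope on length was −0.12 without a filter, 0 after the correction with or without the block, by construction, and −0.0997 for genomic span. The range of medians over chromosomes was 0.64 without a filter and 0.55 after the correction with or without the block, with chromosome 18 lowest each time.

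After the correction, with or without the block, Jun was at −0.14, Ifitm2 at −0.00 and Twist1 at −0.02. With 1 sample left out, Itga1 ran from −0.24 to 0.45 and Slc2a1 from −0.26 to 0.04, with 0.02 without E0771-LGshCtrl replicate 2. For these genes the cause was not tested. With the correction and the block together, 33 interferon-stimulated effectors, 11 NF-kB genes, 7 genes of MHC class I presentation and 4 AP-1 factors were called lower. The fit of all 12 cell samples is itself the fit for the difference between lines, so that alternative gives no value of its own there.

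The authors' methods describe 3 biological replicates, without saying whether these were separate cultures or separate transductions, so each p measures spread between these samples. Values are relative to depth, so a gene can move because others take more or fewer reads. Genes with close relatives or processed copies share reads, and the strand of counting, which bears on overlapping genes, is not stated. Genes near 1 RPM have too few reads for small changes to be seen.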

Other observations

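Some genes were nearly absent from E0771-LGshCtrl, with at most 3 reads over its 3 samples, and present in each E0771-LGshPTN sample. Those given here were chosen after their values were seen. Scin, for the actin-severing protein scinderin, had 1 read over the controls and between 43 and 72 reads in each knockdown sample. Its log2 fold change was 6.18, and 1.91 with a pseudocount of 1. H2-Q4 had 2 reads over the controls and between 34 and 63 in each knockdown sample. By the same rule, no gene was nearly absent from E0771-LGshPTN and present in each control.

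Glycolysis and the hypoxia response showed no shared direction. Of 31 genes tested, 6 fell (19.4%) and 4 rose (12.9%), beside 22.1% and 24.3% of all genes tested. The median was 0.13, and 0.04 after the correction for GC content and length, with 6 lower and 2 higher. Hk2, for the hexokinase that traps glucose in the cell, went from 6.71, 6.94 and 6.93 to 5.97, 6.15 and 6.30. Each knockdown sample lay below each control. Slc2a1, for the glucose transporter GLUT1, had a log2 fold change of −0.13 that did not pass the test (adjusted p = 0.59). Without E0771-LGshCtrl replicate 2, 9 members were called higher, without E0771-LGshCtrl replicate 1 there were 2, and without E0771-LGshCtrl replicate 3, E0771-LGshPTN replicate 2 or E0771-LGshPTN replicate 3 there was 1. With replicates paired as a block there were 7, and with quantile normalization 2.

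Of 21 targets of p53 tested, 4 rose (19%) and 4 fell (19%), beside 24.3% and 22.1% of all genes tested. The median was 0.12, and −0.12 after the correction, with 3 in each direction. Without E0771-LGshCtrl replicate 3, or without E0771-LGshPTN replicate 2, 2 members were called higher and 0 lower by limma. Without E0771-LGshPTN replicate 3, 2 were called in each direction, and without E0771-LGshPTN replicate 1, 1 was called lower. Without a filter, or with quantile normalization, 2 were called lower.

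The share of reads from 7 mitochondrially encoded genes was 0.428%, 0.463% and 0.473% in E0771-LGshCtrl and 0.534%, 0.403% and 0.511% in E0771-LGshPTN, so the groups overlapped.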
